A study of Mus musculus with 33 samples.

Results

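The 10 genes described here are widely used markers of Muller glia: Rlbp1, Glul, Slc1a3, Vim, Aqp4, Kcnj10, Apoe, Dkk3, Clu and Car14. They were taken by gene symbol from the 47729 genes of the count tables, and all 10 were found and passed the filter on low counts that left 18150 genes for testing. The libraries came from retinal progenitor cells of C57BL/6J mice, taken from retina at embryonic day 14 and sequenced in bulk as total RNA. The groups were untreated cells at day 0, cells primed for the cone or the rod fate at day 0, and cells induced towards either fate and collected at days 5, 12, 21 and 35. Cone cultures received COCO protein, which binds and blocks BMP, Wnt and TGF-beta ligands, and rod cultures received taurine and retinoic acid. There were 3 libraries in each of the 11 groups. The labels give no genetic change in any group, do not say how long each factor stayed in the medium, and do not say whether the 3 libraries of a group were separate cultures. P-values therefore measure the spread between these libraries, which may be technical.

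Muller glia are the main glial cells of the retina and the last major cell class that its progenitors produce. They span the whole tissue, take up glutamate released by neurons and turn it into glutamine, carry potassium and water away from active synapses, and supply cones with retinoid. Many of their genes are already used by retinal progenitors, so the presence of RNA from such a gene does not by itself mark a glial cell, and several are shared with other cells: Apoe with microglia, Vim with mesenchyme, and Aqp4, Slc1a3 and Glul with astrocytes. In bulk RNA, a larger share of cells that express a gene and more RNA per cell cannot be told apart.

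Positions are those of the deposited tables on mouse genome build GRCm38. All 10 genes are annotated as protein coding. Slc1a3 lies on chromosome 15 from 8634124 to 8710764 on the minus strand, Kcnj10 on chromosome 1 from 172341210 to 172374085 on the plus strand, and Glul on the same chromosome from 153899944 to 153909723, also on the plus strand. RefSeq promoter windows on GRCm38.p6, matched by symbol, were used for 7 of the 10 genes and gave 9 windows. The 250 bases upstream of the annotated start are shown for 3 of them, because Slc1a3 and Kcnj10 had the most similar RNA course of any member pair, while Glul had a course unlike the others. Each is printed 5′ to 3′ on the strand of its gene, and capitals mark a match to the retinoic acid receptor half-site AGGTCA. The windows are chr15:8710808-8711057 on the minus strand for Slc1a3, chr1:172340960-172341209 on the plus strand for Kcnj10 and chr1:153899679-153899928 on the plus strand for Glul.
Slc1a3: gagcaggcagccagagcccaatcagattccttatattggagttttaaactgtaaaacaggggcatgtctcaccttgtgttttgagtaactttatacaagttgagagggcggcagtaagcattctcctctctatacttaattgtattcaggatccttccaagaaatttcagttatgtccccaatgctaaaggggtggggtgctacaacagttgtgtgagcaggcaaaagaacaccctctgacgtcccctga
Kcnj10: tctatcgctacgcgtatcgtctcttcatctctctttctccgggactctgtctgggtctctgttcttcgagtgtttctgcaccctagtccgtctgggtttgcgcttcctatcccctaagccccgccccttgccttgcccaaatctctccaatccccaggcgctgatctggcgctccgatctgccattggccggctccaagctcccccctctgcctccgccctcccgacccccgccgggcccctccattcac
Glul: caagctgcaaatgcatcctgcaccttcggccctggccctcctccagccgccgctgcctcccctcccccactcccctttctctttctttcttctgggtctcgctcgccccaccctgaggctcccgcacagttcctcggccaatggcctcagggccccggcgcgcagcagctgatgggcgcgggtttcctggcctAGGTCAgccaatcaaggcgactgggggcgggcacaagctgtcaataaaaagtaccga
Both strands of each window were searched for this half-site and for 3 other motifs: the Rbpj site TGGGAA, the Sox site ACAATG and the nuclear factor I half-site TTGGCA. The half-site was found in the Glul window only, on the plus strand 57 bases upstream of the start, and in none of the other 8 member windows. The same letters occur in 14.0% of all 32536 RefSeq windows of this length. The Sox site (10.5% of windows) was found once, 144 bases upstream of an Apoe start, and the nuclear factor I half-site (12.3%) once, 57 bases upstream of another Apoe start. The Rbpj site (21.6%) was found in none of the member windows. These matches describe the sequence and do not show that a factor binds there.

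The libraries held 7511837 to 19166442 gene counts (median 12985662), and genes received 26.9% to 34.9% of all counted reads. Levels are given below in CPM, read counts relative to library size after edgeR's TMM scaling. Of 9 retinal progenitor markers (among them Pax6 and Six3), none was at 0 in all untreated libraries. Together they made up 1666 to 2073 CPM there. In the same libraries photoreceptor markers summed to 898 to 1213 CPM and neuron markers to 911 to 1247 CPM. None of those was at 0 in all of them either, so these sums do not tell progenitors from other retinal cells. Rod day 12 stood apart as the least uniform group. Its replicate 2 had a mean correlation of 0.944 with its group mates, the lowest of all 33 libraries, and summed photoreceptor markers of 734.1 CPM against 67.2 and 134.2 CPM in the other two, so the calls at rod day 12 are also given without it. The labels name no batch, so no comparison within batches could be made. The deposited TPM values were not used for levels, because they list Clu at 0 in 13 of the 33 libraries although those held 77 to 2407 Clu counts, and Aqp4 at 0 in 25. Whether the counts or the TPM values are at fault was not tested. On log2 TPM, 24 of 87 calls were kept and 9 called directions turned, which the closing section names.

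**Figure D1:**
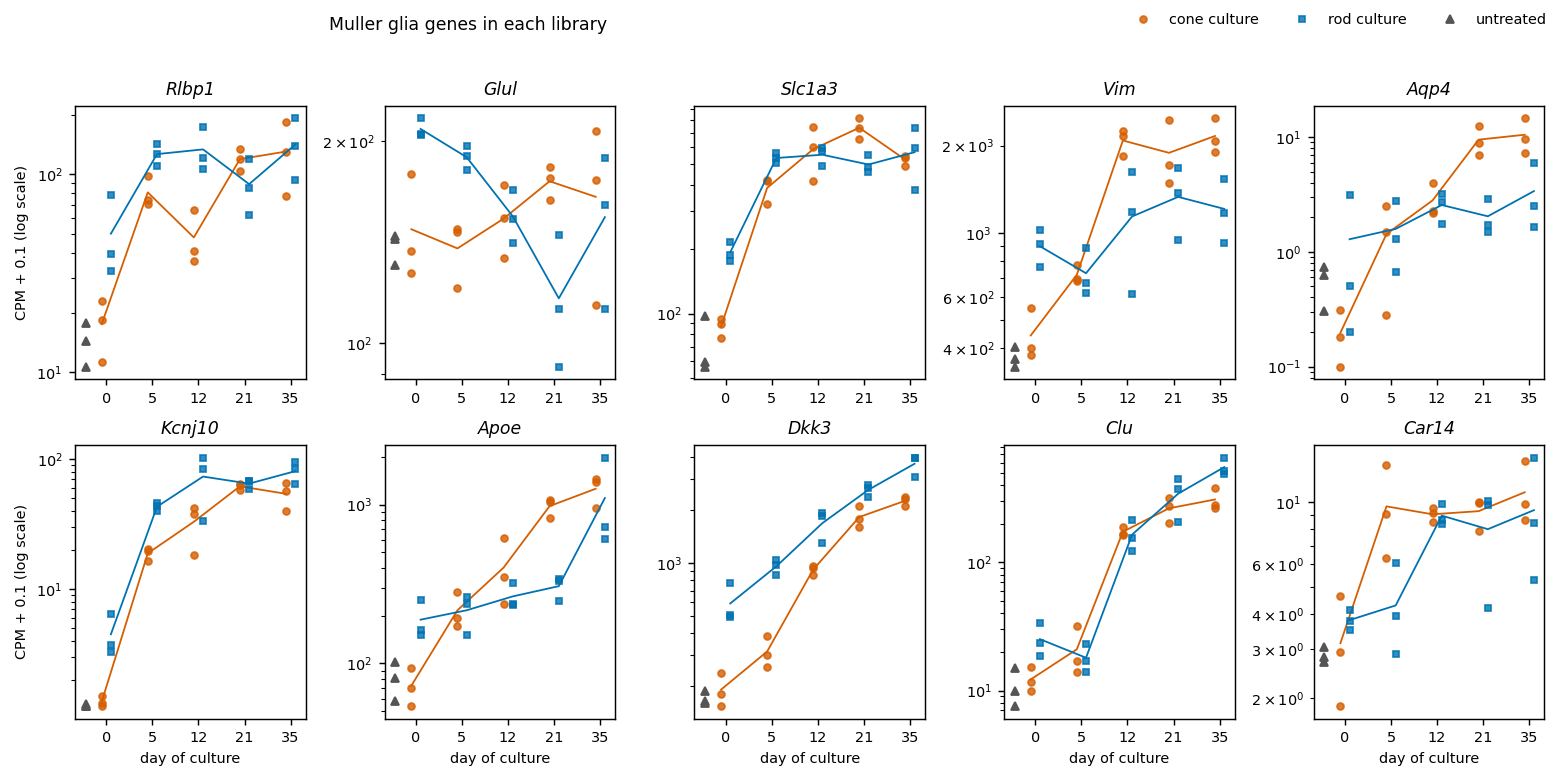
RNA level of each of the 10 Muller glia genes in every library, as CPM plus 0.1 on a log axis, against day of culture drawn as evenly spaced categories. Points are libraries, lines join the group means, and grey triangles are untreated cells at day 0. Most genes climb in both cultures, Glul stays between 92.2 and 217 CPM, and the rod primed points at day 0 lie above the cone primed points for most genes.

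The 10 genes differed widely in level before any treatment. Per kilobase of exon, untreated cells held most of Vim (78.3 ± 6.3 CPM per kb, SD, n = 3), the intermediate filament protein vimentin, then Dkk3 (50.9 ± 4.5), a secreted protein of the dickkopf family, Glul (41.9 ± 2.3), glutamine synthetase, and Apoe (37.5 ± 10.2), the lipid carrier apolipoprotein E. The Glul and Apoe libraries overlapped, while Vim and Dkk3 stood clear of each other and of the rest. Kcnj10, the inward rectifier potassium channel Kir4.1, was at 0.216 ± 0.0051 CPM per kb and Aqp4, the water channel aquaporin-4, at 0.0736 ± 0.036, the lowest 2 of the 10. At day 35 the order had changed: Dkk3 led in both cultures, at 675 ± 42 CPM per kb in cone and 1094 ± 152 in rod libraries, followed by Apoe, Vim and Clu. The libraries of Dkk3 and Apoe, and those of Apoe and Vim, overlapped at day 35 in both cultures. Aqp4 remained the lowest of the 10, at 1.66 ± 0.60 CPM per kb in cone and 0.526 ± 0.366 in rod libraries.

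The first comparison asks what priming alone did at day 0. In rod primed cells 8 of the 10 genes rose over untreated cells and none fell, by 1.50- to 3.62-fold, where 10.3% of all genes were called and 6.71% were called higher. A call here is an adjusted p below 0.05 from edgeR's quasi-likelihood test, with p-values adjusted over all genes by the Benjamini-Hochberg method. In cone primed cells none of the 10 was called, where 0% of all genes were called. Of all genes, 200 (1.1%) had an unadjusted p under 0.05 in that comparison, none of them a member, and DESeq2 likewise called no member. That share is lower than a threshold of 0.05 would give with no effect at all. The test was therefore conservative there and may have missed small changes.

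Slc1a3, the glutamate and aspartate transporter GLAST, was at 96.8, 59.2 and 56.5 CPM in the 3 untreated libraries, at 89.2, 94.7 and 76.7 CPM after cone priming and at 176, 187 and 216 CPM after rod priming. The rod primed libraries lay above all 6 others, and the log2 fold change over untreated cells was 1.45 ± 0.21 (SE, adjusted p = 3.33e-05). Dkk3 behaved alike, with 188, 160 and 165 CPM untreated, 181, 239 and 154 CPM cone primed and 494, 510 and 770 CPM rod primed (1.79 ± 0.18, adjusted p = 1.62e-07). Rlbp1 encodes CRALBP, the carrier of 11-cis retinoids. It went from 17.5, 14.2 and 10.6 CPM to 78.1, 39.3 and 32.5 CPM with rod priming (1.83 ± 0.36, adjusted p = 0.0013), again with no overlap. Kcnj10, at 1.15 to 1.20 CPM in untreated cells, was at 6.38, 3.63 and 3.14 CPM in rod primed cells (1.86 ± 0.43, adjusted p = 0.0062).

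Vim rose from 345 to 404 CPM in untreated cells to 763 to 1019 CPM with rod priming (1.28 ± 0.26, adjusted p = 0.0017). Apoe (1.24 ± 0.37, adjusted p = 0.030), Clu (1.22 ± 0.33, adjusted p = 0.016) and Glul (0.58 ± 0.18, adjusted p = 0.040) were also called. These 3 calls were less firm: Glul lost its call whichever of the 6 libraries was left out (adjusted p up to 0.131), Apoe without untreated replicate 2 or 3 or rod primed replicate 1 (adjusted p up to 0.135) and Clu without untreated replicate 3 or rod primed replicate 3 (up to 0.133). Car14, the membrane carbonic anhydrase XIV, was not called (0.44 ± 0.39), nor was Aqp4, for which 34 of the 38 rod primed counts came from replicate 3. The median log2 fold change was 1.36 over the 10 genes and 0 over all genes tested. Progenitor marker sums moved at the same step, from 1666 to 2073 CPM in untreated cells to 2777 to 3566 CPM in rod primed cells. Of the 9 markers 4 were called higher, where 6.71% of all genes were. Among them were Ccnd1 (from 93.7 to 433 CPM) and Sfrp2 (from 64.1 to 295 CPM). The 1 called lower was Pax6 (log2 -0.57 ± 0.14). Neuron marker sums moved the other way, from 911 to 1247 CPM to 534 to 698 CPM, though none of the 8 neuron markers was called. The part of either in the result was not tested.

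**Figure D2:**
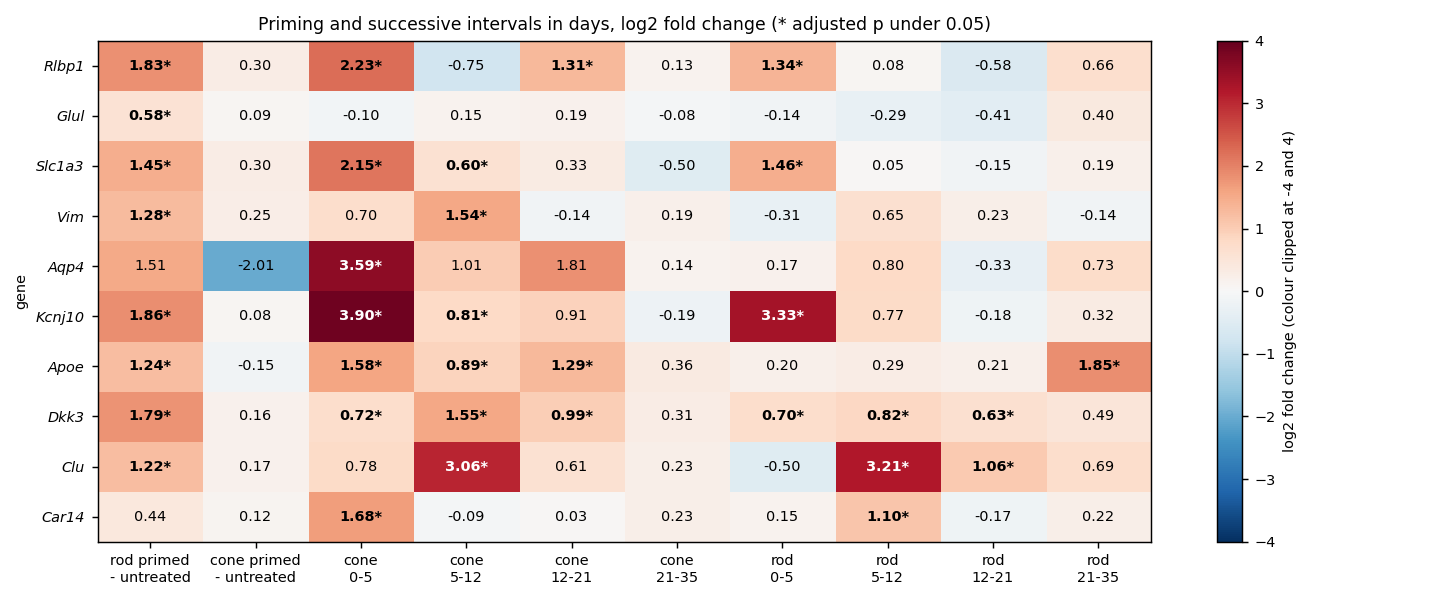
Log2 fold change of each gene at priming and over each interval of culture in days, from the edgeR model, with an asterisk at an adjusted p under 0.05. Red is higher in the later or primed group, blue lower. Called rises are most frequent at rod priming and over days 0 to 5 and 5 to 12. In culture, calls over all genes were also most frequent over days 0 to 5 and 5 to 12. Fitted values of Aqp4 against cone primed cells rest on 3 counts there.

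From primed cells to day 35, 9 of the 10 genes rose in cone culture and none fell, where 57.7% of all genes were called in either direction and 31.1% were called higher. In rod culture 7 rose and 1 fell, where 55.6% of all genes were called and 29.4% were called higher. The median log2 change over the 10 genes was 3.24 in cone and 1.53 in rod culture, against 0.027 and 0.035 over all genes. The cultures started from different levels. The median log2 difference of cone over rod culture was -1.268 over the 10 genes at day 0 and -0.008 at day 35. Intervals that follow each other share libraries, and so do the day 0 comparisons, so their results are not independent of each other. Calls were most frequent at the early intervals, both among the 10 genes and over all genes. The member counts therefore do not by themselves show a timing particular to these genes. In cone culture 60% of members stood against 43.2% of all genes for days 5 to 12, and 30% against 3.36% for days 12 to 21. In cone culture 7 of the 10 rose from primed cells to day 5 (22.3% of all genes called), 6 from day 5 to day 12 (43.2%) and 3 from day 12 to day 21 (3.36%). From day 21 to day 35 none was called in cone culture (0.915%), and 1, Slc1a3, had an unadjusted p under 0.05, as 13.3% of all genes did. DESeq2 called none of the 10 there either. In rod culture 4 rose from primed cells to day 5 (17.5%), 3 from day 5 to day 12 (18.3%), 2 from day 12 to day 21 (11.2%) and 1 from day 21 to day 35 (1.54%). No member fell at a called interval in either culture. These counts depended on single libraries: without 1 of them the count was 3 to 6 for cone days 5 to 12, 1 to 2 for cone days 12 to 21, 2 to 5 for rod days 5 to 12, 0 to 2 for rod days 12 to 21 and 0 to 1 for rod days 21 to 35. Without rod day 12 replicate 2, 5 members were called for rod days 5 to 12 and 0 for rod days 12 to 21.

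Among the genes of glutamate handling, Slc1a3 rose early in both cultures. It stood at 418, 414 and 326 CPM in cone and 507, 560 and 532 CPM in rod libraries by day 5, and at 535, 491 and 543 CPM in cone and 732, 378 and 590 CPM in rod libraries by day 35. The change from primed cells to day 35 was 2.59 ± 0.22 on the log2 scale in cone culture (adjusted p = 9.31e-11) and 1.55 ± 0.21 in rod culture (adjusted p = 4.96e-07), and in both cultures every day 35 library lay above every primed one. After day 5 the cone libraries were called again at day 12 (0.60 ± 0.20, adjusted p = 0.018, lost without cone day 5 replicate 2 or 3 or cone day 12 replicate 1, adjusted p up to 0.154), and the rod libraries at no later interval.

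Glul, which makes glutamine from glutamate, took another course. Its cone levels were 137, 179 and 127 CPM in primed cells and 114, 207 and 175 CPM at day 35, fully overlapping (log2 change 0.16 ± 0.18, adjusted p = 0.47). In rod culture it went from 205, 205 and 217 CPM to 189, 112 and 161 CPM, a log2 change of -0.44 ± 0.18 (adjusted p = 0.043) that was called only in the full set and without rod day 35 replicate 1 (adjusted p up to 0.252 without another library). The highest group mean was rod primed (209 ± 6.8 CPM) and the lowest rod day 21 (117 ± 27 CPM), a smaller fold between extremes than in any other member. Of 9 partners in glutamate and glutamine handling, 8 were tested. In each culture 2 rose and 3 fell from primed cells to day 35. That is close to the share over all genes, of which 57.7% were called in cone and 55.6% in rod culture. The glutamine carrier Slc38a3 was among those that rose, by 1.44 ± 0.39 in cone and 0.96 ± 0.38 in rod culture on the log2 scale. The neuronal carriers Slc38a1 and Slc1a1 were among those that fell, Slc38a1 with a log2 change of -1.96 ± 0.11 in cone and -2.22 ± 0.11 in rod culture.

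The potassium channel gene Kcnj10 was one of the steepest members. Cone libraries held 1.38, 1.21 and 1.15 CPM when primed, 19.6, 20.2 and 16.3 CPM at day 5 and 40.0, 65.8 and 56.4 CPM at day 35. Rod libraries went from 6.38, 3.63 and 3.14 CPM to 45.8, 39.7 and 43.5 CPM at day 5 and 94.7, 64.6 and 83.4 CPM at day 35. No day 5 library overlapped a primed one, and on the log2 scale most of the change fell in this first interval. To day 35 it was 43.2-fold in cone (log2 5.43 ± 0.39, adjusted p = 7.12e-12) and 18.9-fold in rod culture (4.24 ± 0.34, adjusted p = 1.02e-10).

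Aqp4 was measured near its floor for much of the series, a count of 3 being 0.174 to 0.407 CPM. The 3 cone primed libraries held 0, 1 and 2 counts, and the cone day 35 libraries 84, 169 and 117. The ratio of summed levels was 103 with an exact 95% interval of 35.0 to 502 (counting error only), and that of day 21 over primed cells was 92.8 (31.5 to 453). Both ratios rest on a low base, since cone primed cells were the lowest of the 11 groups. Untreated cells held 16 counts (mean 0.459 CPM). Cone primed over untreated cells gave a ratio of 0.236 (0.044 to 0.823, counting error only), a difference that edgeR did not call. Cone levels were 7.17, 14.5 and 9.44 CPM at day 35, while rod levels were 5.86, 2.43 and 1.55 CPM there, against 0.407, 0.101 and 3.05 CPM in rod primed cells. The rod change was not called (log2 1.36 ± 0.73, adjusted p = 0.11), and the rod primed and day 35 libraries overlapped.

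Car14, which acts in acid and base balance at the glial surface, rose less. It went from 4.53, 1.78 and 2.83 CPM in cone primed cells to 13.5, 8.94 and 6.22 CPM at day 5 and 8.53, 13.9 and 9.77 CPM at day 35 (log2 change to day 35 1.85 ± 0.37, adjusted p = 0.00013). In rod culture the step came later, from 5.95, 2.79 and 3.82 CPM at day 5 to 9.78, 8.26 and 8.51 CPM at day 12 (1.10 ± 0.36, adjusted p = 0.031, kept only without rod day 5 replicate 1 or rod day 12 replicate 2, adjusted p up to 0.167 otherwise). The rod change to day 35 was 1.31 ± 0.37 (adjusted p = 0.0036). It was not called without rod day 35 replicate 1 (0.82, adjusted p = 0.064).

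Channels and membrane anchors that act with Aqp4 and Kcnj10 moved in the same direction for the most part: of 11 tested, 9 rose and 2 fell in cone culture to day 35, and 8 rose and 2 fell in rod culture (median log2 change 2.21 and 1.31). Utrn, the dystrophin relative utrophin, rose by 3.18 ± 0.26 and 2.36 ± 0.26, and the dystrophin partner Dtna by 2.22 ± 0.25 and 2.30 ± 0.25. Dmd, dystrophin itself, fell in both (log2 change -0.92 ± 0.30 and -0.72 ± 0.30), as did the potassium channel gene Kcnk2 (-2.30 ± 0.43 and -2.85 ± 0.48). Of 8 genes listed beside Car14, 6 were tested. The bicarbonate transporter Slc4a4 rose from 4.18 to 156 CPM in cone and from 6.04 to 51.6 CPM in rod culture, and Car2 fell in cone culture (log2 -1.36 ± 0.28). In all 3 rose and 1 fell in cone culture, and 5 rose and none fell in rod culture (median 1.37 and 2.94). Beside both lists, 57.7% of all genes were called in cone and 55.6% in rod culture, 31.1% and 29.4% as higher.

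**Figure D3:**
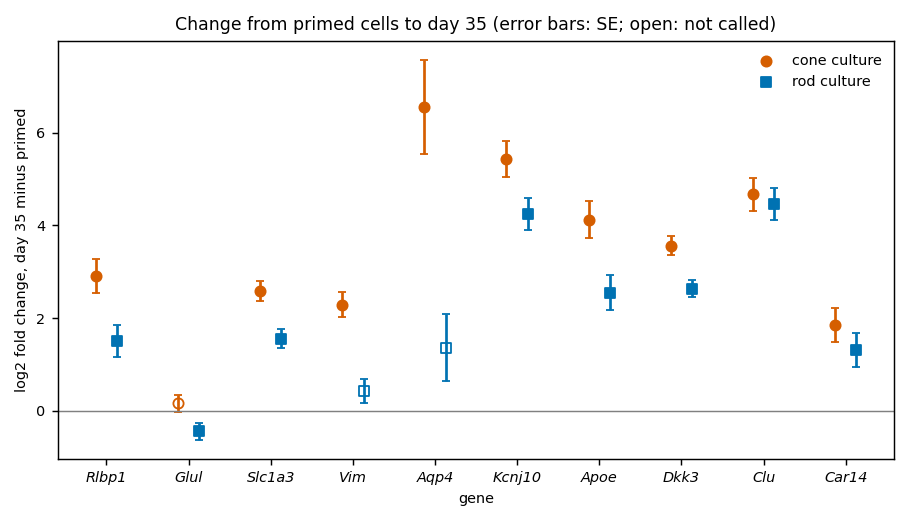
Log2 change from primed cells to day 35 for each gene in cone culture (orange circles) and rod culture (blue squares), with bars of 1 SE from the edgeR model and open symbols where the change was not called. Cone points lie above rod points for all 10 genes, and cone primed cells started below rod primed cells for all 10. Glul is the one gene whose cone change was not called, and the cone point of Aqp4 rests on 3 counts in primed cells.

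Rlbp1 rose in an uneven way in cone culture. Its cone libraries held 22.8, 11.2 and 18.2 CPM when primed, 97.5, 74.0 and 70.9 CPM at day 5, 41.0, 65.9 and 36.5 CPM at day 12 and 135, 119 and 104 CPM at day 21. All day 12 libraries were below all day 5 libraries, yet that interval was not called (log2 -0.75), whereas the rise from day 12 to day 21 was (1.31 ± 0.34, adjusted p = 0.031, kept only without cone day 12 replicate 2 or cone day 21 replicate 3, adjusted p up to 0.143 otherwise). Rod libraries reached 127, 110 and 142 CPM at day 5 and were not called at any later interval. To day 35 the change was 2.92 ± 0.37 in cone (adjusted p = 1.34e-07) and 1.50 ± 0.34 in rod culture (adjusted p = 0.00052).

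Of 9 retinoid carriers and enzymes listed beside Rlbp1, 8 were tested. To day 35, 4 rose and 1 fell in cone culture and 3 rose and 2 fell in rod culture. Over all genes 57.7% and 55.6% were called in either direction, close to the shares of this list. The median log2 change was 1.93 in cone culture, or 0.711 with a gene at 0 in all cone primed libraries set to the floor, and 0.223 in rod culture. That gene could not fall in cone culture. Degs1, a desaturase also credited with retinol isomerase activity, rose by 2.45 ± 0.22 in cone and 1.99 ± 0.22 in rod culture on the log2 scale.

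Apoe and Clu encode apolipoproteins that glia secrete. Apoe went up in cone culture, from 93.1, 53.7 and 70.0 CPM when primed to 616, 349 and 237 CPM at day 12, 1077, 1042 and 820 CPM at day 21 and 947, 1382 and 1451 CPM at day 35 (log2 change to day 35 4.13 ± 0.41, adjusted p = 2.04e-09). Its single steps were less firm than the whole: the call for days 5 to 12 was lost without cone day 12 replicate 1 (0.45, adjusted p = 0.370) and 3 other libraries, and that for days 12 to 21 was kept only without cone day 12 replicate 1 (adjusted p up to 0.203 without another library). Rod libraries stayed at 150 to 341 CPM from day 5 to day 21 and were at 1976, 611 and 718 CPM at day 35. That last interval was the only one called for Apoe in rod culture (1.85 ± 0.37, adjusted p = 0.012). Without rod day 21 replicate 2 it was not called (1.71, adjusted p = 0.079). Rod day 35 replicate 1 held much of it: without it the change was 1.10 (adjusted p = 0.115), though the 2 others still lay above every day 21 library.

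On the log2 scale, Clu changed chiefly between day 5 and day 12 in both cultures. Cone libraries went from 31.9, 17.0 and 13.8 CPM to 164, 166 and 190 CPM (log2 3.06 ± 0.32, adjusted p = 3.71e-08). Rod libraries went from 23.1, 16.8 and 13.9 CPM to 214, 156 and 123 CPM (3.21 ± 0.33, adjusted p = 2.18e-07), and the change was 3.20 without rod day 12 replicate 2. A further rod rise from day 12 to day 21 (1.06 ± 0.30, adjusted p = 0.021), between overlapping groups, was kept only without rod day 12 replicate 1 or rod day 21 replicate 2 (adjusted p up to 0.112 otherwise). By day 35 they held 268, 379 and 282 CPM in cone and 517, 655 and 488 CPM in rod culture, 25.4- and 22.0-fold above primed cells.

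Of 10 lipid transport genes listed beside Apoe and Clu, 9 were tested. In cone culture 5 rose and 2 fell to day 35, and in rod culture 4 rose and 2 fell (median log2 change 1.37 and 0.226). Of all genes 57.7% were called in cone and 55.6% in rod culture, 31.1% and 29.4% as higher. The lipoprotein receptors Lrp2 (5.60 ± 0.37 and 4.50 ± 0.35) and Lrp1 (2.76 ± 0.19 and 2.94 ± 0.19) rose in both cultures, and Lrp8, a receptor of Apoe and reelin, fell (-2.21 ± 0.18 and -2.36 ± 0.18). Over the mean of days 5 to 35, 7 of the 9 were higher and 1 lower in cone than in rod culture, where 15.6% of all genes were higher. The cholesterol exporter Abcg1 (1.36 ± 0.28) and lipoprotein lipase, Lpl (1.30 ± 0.27), were among the higher ones, and Vldlr was the lower one (-0.52 ± 0.16).

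Dkk3, despite its family name, is not thought to act as the classical dickkopf antagonists of Wnt receptors do. It rose at every interval up to day 21 in both cultures, although the rod calls were lost without rod primed replicate 1 or 2 for days 0 to 5 (adjusted p up to 0.055) and without rod day 12 replicate 2 or rod day 21 replicate 1 or 3 for days 12 to 21 (up to 0.198). The rod rise from day 5 to day 12 was 0.82 ± 0.18 (adjusted p = 0.0019) and 0.93 without rod day 12 replicate 2. Cone libraries held 181, 239 and 154 CPM when primed, 966, 856 and 940 CPM at day 12 and 2109, 2380 and 2310 CPM at day 35. Rod libraries held 494, 510 and 770 CPM, 1922, 1300 and 1850 CPM, and 3975, 3086 and 3964 CPM at the same times. The change to day 35 was 3.56 ± 0.20 in cone (adjusted p = 7.01e-14) and 2.64 ± 0.19 in rod culture (adjusted p = 1.41e-11). Of 6 genes listed beside it, 5 were tested and 5 rose in cone and 4 in rod culture, where 31.1% and 29.4% of all genes rose. Of these 5, 1 was at 0 in all cone primed libraries and could not fall there. The genes that rose include the Wnt receptors Lrp5 (1.27 ± 0.19 and 1.32 ± 0.19) and Lrp6 (0.90 ± 0.12 and 1.04 ± 0.12).

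Vim split the cultures. Cone libraries held 377, 549 and 399 CPM when primed, 680, 774 and 693 CPM at day 5, 2151, 1845 and 2255 CPM at day 12 and 2489, 1907 and 2083 CPM at day 35. Rod libraries began higher, at 763, 913 and 1019 CPM, and were at 923, 1171 and 1533 CPM at day 35. The change to day 35 was 2.29 ± 0.27 in cone culture (adjusted p = 3.79e-08) and 0.43 in rod culture, which was not called (adjusted p = 0.16) and in which primed and day 35 libraries overlapped.

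Genes of reactive glia, listed beside Vim, also rose. Of 13 tested, 12 rose and none fell to day 35 in each culture, where 31.1% of all genes rose in cone and 29.4% in rod culture. In each culture 5 of the 13 were at 0 in all primed libraries. Such genes passed the filter on low counts through other libraries and could not fall, so part of this count was fixed in advance. With those set to the floor, the median log2 change was 5.68 in cone and 4.35 in rod culture. Gfap, the glial filament protein, had 3 counts over the primed libraries of each culture and reached 151 CPM in cone and 174 CPM in rod libraries. Serpina3n, a serine protease inhibitor of reactive astrocytes, had no count in primed cells of either culture and reached 45.1 and 90.7 CPM. Over the mean of days 5 to 35, 10 of the 13 were higher and 1, Nes, was lower in cone than in rod culture. Of all genes 15.6% were higher and 12.2% lower. That contrast averages log2 values over days and can differ from mean levels. Serpina3n was called higher (1.19 ± 0.35) with mean levels of 32.3 CPM in cone and 32.4 CPM in rod culture. The day 35 means of Gfap and Serpina3n given above were higher in rod culture.

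The next comparison asks how cone and rod cultures differed on the same day. At day 0, 7 of the 10 genes were lower in cone primed than in rod primed cells and none was higher, where 7.27% of all genes were called and 4.77% were called lower. The rod primed libraries are those that were set against untreated cells above. Dkk3 (-1.63 ± 0.18, adjusted p = 1.05e-06), Slc1a3 (-1.15 ± 0.21, adjusted p = 0.00063) and Rlbp1 (-1.53 ± 0.36, adjusted p = 0.0081) were the firmest. Kcnj10 (-1.77 ± 0.45), Vim (-1.02 ± 0.26), Apoe (-1.38 ± 0.37) and Clu (-1.05 ± 0.33) were the other 4. Leaving out 1 library changed the count to between 3 and 8, and it was 3 without rod primed replicate 1 and without cone primed replicate 3. Slc1a3 and Dkk3 were called in all 6 such fits, Rlbp1 was lost only without rod primed replicate 1 (-1.06, adjusted p = 0.084), and Clu was called only without rod primed replicate 2.

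**Figure D4:**
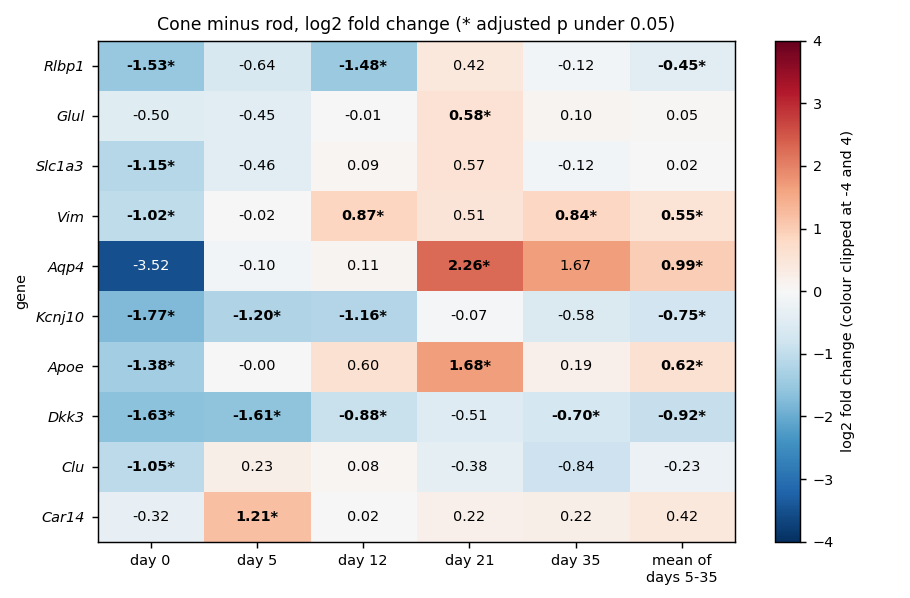
Log2 fold change of cone over rod culture for each gene at each day and over the mean of days 5 to 35, from the edgeR model, with an asterisk at an adjusted p under 0.05. Blue is lower in cone culture. The day 0 column is blue for all 10 genes, later columns hold both colours, and the Aqp4 value at day 0 rests on 3 counts in cone primed cells.

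At day 5, 3 of the 10 were called (9.28% of all genes). Dkk3 was at 384, 259 and 303 CPM in cone and 1046, 858 and 978 CPM in rod libraries (-1.61 ± 0.18, adjusted p = 1.60e-06). Kcnj10 was likewise lower in cone culture (-1.20 ± 0.29, adjusted p = 0.0077), and the groups did not overlap for either. Car14 was higher (1.21 ± 0.36, adjusted p = 0.030), a call lost without cone day 5 replicate 1 or rod day 5 replicate 2 or 3 (adjusted p up to 0.168).

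At day 12, 4 were called (10.1% of all genes). Rlbp1 (-1.48 ± 0.34, adjusted p = 0.0048), Kcnj10 (-1.16 ± 0.29, adjusted p = 0.0082) and Dkk3 (-0.88 ± 0.18, adjusted p = 0.0018) were lower in cone culture, and Vim was higher (0.87 ± 0.26, adjusted p = 0.028). Rod Kcnj10 was at 84.7, 33.2 and 103 CPM and rod Vim at 1621, 616 and 1178 CPM, so replicate 2 was the low library for both. Without it Vim was not called (0.57, adjusted p = 0.165), while Kcnj10 (-1.52, adjusted p = 9.8e-05), Dkk3 (-1.04, adjusted p = 0.00051) and Rlbp1 (-1.24, adjusted p = 0.030) were. Kcnj10 was not called without cone day 12 replicate 3 (-0.87, adjusted p = 0.077) or rod day 12 replicate 3 (-0.85, adjusted p = 0.090), and Vim was also lost without any of 3 further libraries. None of the 4 was called in a model of the 6 day 12 libraries alone (adjusted p of 0.057 for Rlbp1 and 0.068 for Dkk3).

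At day 21, 3 were called, all higher in cone culture (9% of all genes). Apoe stood at 1077, 1042 and 820 CPM in cone against 341, 247 and 332 CPM in rod libraries (1.68 ± 0.37, adjusted p = 0.0036). Aqp4 was at 8.79, 12.5 and 6.88 CPM against 1.39, 1.62 and 2.80 CPM (2.26 ± 0.67, adjusted p = 0.033), and Glul at 163, 183 and 176 CPM against 145, 92.2 and 112 CPM (0.58 ± 0.18, adjusted p = 0.044). None of the 3 overlapped between groups, but Aqp4 and Glul each lost the call when any of 5 of the 6 libraries was left out (adjusted p up to 0.117 and 0.222), the exceptions being cone replicate 3 for Aqp4 and rod replicate 1 for Glul.

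At day 35, 2 were called (12.3% of all genes). Vim was higher in cone culture (0.84 ± 0.26, adjusted p = 0.030) and Dkk3 lower (-0.70 ± 0.18, adjusted p = 0.0099). Vim kept its call only without cone replicate 2 or rod replicate 3 (adjusted p up to 0.175 without another library), and Dkk3 kept it in all 6 cases. Aqp4 did not overlap between the groups but was not called (1.67 ± 0.65, adjusted p = 0.095), and neither was Apoe (0.19 ± 0.36, adjusted p = 0.80).

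Over the mean of days 5 to 35, 6 of the 10 differed, 3 in each direction, where 27.8% of all genes were called, 15.6% as higher and 12.2% as lower. Apoe (0.62 ± 0.18, adjusted p = 0.011), Aqp4 (0.99 ± 0.34, adjusted p = 0.031) and Vim (0.55 ± 0.13, adjusted p = 0.0018) were higher in cone culture. Dkk3 (-0.92 ± 0.09, adjusted p = 1.07e-08), Kcnj10 (-0.75 ± 0.14, adjusted p = 0.0002) and Rlbp1 (-0.45 ± 0.17, adjusted p = 0.041) were lower. The Rlbp1 call was lost in 14 and the Aqp4 call in 9 of 24 fits that left out 1 library each, and the 4 other calls in none. Dkk3 was lower in cone culture at 4 of the 5 days tested singly, more than any other member, with day 21 the exception (-0.51 ± 0.18, adjusted p = 0.072, no overlap).

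Whether the cone minus rod difference itself changed with day was tested by an F test on 4 degrees of freedom over days 0 to 35. It was called for 7 of the 10 genes, against 9.22% of all genes: Slc1a3 (adjusted p = 0.0029), Vim (0.0037), Apoe (0.0045), Dkk3 (0.0062), Rlbp1 (0.021), Glul (0.026) and Aqp4 (0.029). The Aqp4 call was lost without any cone primed library or rod primed replicate 3 (adjusted p up to 0.144), and the Glul call in 6 of 30 fits without 1 library (up to 0.066). It was not called for Kcnj10 (0.090), Clu (0.141) or Car14 (0.232). A second test, added after the data were seen, set the cone change from primed cells to day 35 against the rod change. The cone change was larger for 4 genes, with 5.66% of all genes called: Vim by 1.86 ± 0.36 on the log2 scale (adjusted p = 0.0022), Slc1a3 by 1.04 ± 0.29 (0.031), Dkk3 by 0.93 ± 0.25 (0.028) and Aqp4 (0.019). The fitted size for Aqp4 rests on the 3 counts of cone primed cells and is not given, and without rod primed replicate 3 it was not called (adjusted p = 0.425). Slc1a3 and Dkk3 each lost the call in 6 of 12 fits without 1 library (adjusted p up to 0.092 and 0.122), while Vim kept it in all 12. For Slc1a3 and Dkk3 the cone cultures started lower at day 0. At day 35 Slc1a3 levels overlapped (log2 difference -0.12 ± 0.20), and Dkk3 was still lower in cone culture.

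Markers of other cell types moved alongside several of these genes. The sum of 9 microglia and macrophage markers was 1.99 to 4.53 CPM in cone primed cells, 18.6 to 49.4 CPM at cone day 21 and 27.2 to 105 CPM at cone day 35. In rod libraries it was 3.32 to 7.18 CPM at day 21 and 4.58 to 8.25 CPM at day 35. Only 7 of the 9 markers passed the filter on low counts, which a gene can pass through the libraries of 1 group alone. Counts of called markers are therefore not compared between the cultures. Apoe is shared with microglia. Rod day 35 replicate 1, the library with the most Apoe (1976 CPM), had a marker sum of 5.27 CPM. The part of such cells in the Apoe results of cone culture was not tested.

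The sum of 9 mesenchyme markers, which include Col1a1 and Pdgfrb, went from 5.34 to 13.5 CPM in cone primed cells to 562 to 3782 CPM at cone day 35, and was 295 to 821 CPM at rod day 35. All 9 rose in both cultures, where 31.1% of all genes rose in cone and 29.4% in rod culture. Dcn was at 0 in all cone primed libraries and could not fall there. Vim is shared with mesenchyme. In the cone day 35 libraries, sums of 2948, 562 and 3782 CPM stood beside Vim levels of 2489, 1907 and 2083 CPM. At cone day 12, where Vim had already reached 1845 to 2255 CPM, the sum was 331 to 422 CPM. The part of mesenchyme in the Vim results was not tested.

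Astrocyte markers, which other members share, summed to 376 to 512 CPM at cone day 35 and 393 to 470 CPM at rod day 35, against 190 to 293 and 218 to 335 CPM in primed cells. They overlapped between cultures at day 35, and 6 of 7 rose and 1 fell in each. Beside this list and those that follow, 57.7% of all genes were called in cone culture to day 35 and 55.6% in rod culture. As higher, 31.1% and 29.4% were called. The 1 astrocyte marker that fell was Slc1a2, which held most of the primed sums. Its mean went from 251 to 67.2 CPM in cone and from 281 to 64.5 CPM in rod culture. The sums therefore understate the rise of the others. The median log2 change over the 7 was 5.27 in cone culture. In rod culture it was 3.78 with a gene at 0 in all primed libraries set to the floor. That gene could not fall there. At day 21, where Aqp4, Glul and Apoe were called higher in cone culture, the astrocyte sums did not overlap, at 482 to 640.1 CPM in cone and 238 to 378 CPM in rod libraries. Their part in those results was not tested. The sum of 8 markers of retinal pigment epithelium, which also makes Rlbp1, went from 6.06 to 20.1 CPM in cone primed cells to 25.5 to 39.0 CPM at cone day 35, and from 10.6 to 23.2 CPM to 25.9 to 32.6 CPM in rod culture. Of the 4 tested, 2 rose in each culture and 1 fell in rod culture. The transcription factor gene Mitf rose in both (2.17 ± 0.25 and 2.30 ± 0.28). The 1 that fell in rod culture was Dct, from 10.2 to 0.19 CPM (log2 -5.7 ± 0.85). Rpe65, the defining enzyme of that tissue, was at 0 in all libraries of rod day 35 and of 8 other groups, but not at cone day 35. The part of such cells in the Rlbp1 results was not tested. Photoreceptor markers fell, 7 of 8 in each culture, from 730 to 1184 CPM in cone primed cells to 11.2 to 30.3 CPM at cone day 35, and from 619 to 1214 CPM to 8.65 to 16.6 CPM in rod culture. Neuron marker sums went from 953 to 1100 CPM to 196 to 294 CPM in cone culture, where 5 of 8 fell, and from 534 to 698 CPM to 133 to 209 CPM in rod culture, where 7 of 8 fell and 1 rose. The part of this change in composition in the rises of the 10 genes, which are measured relative to all RNA, was not tested.

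**Figure D5:**
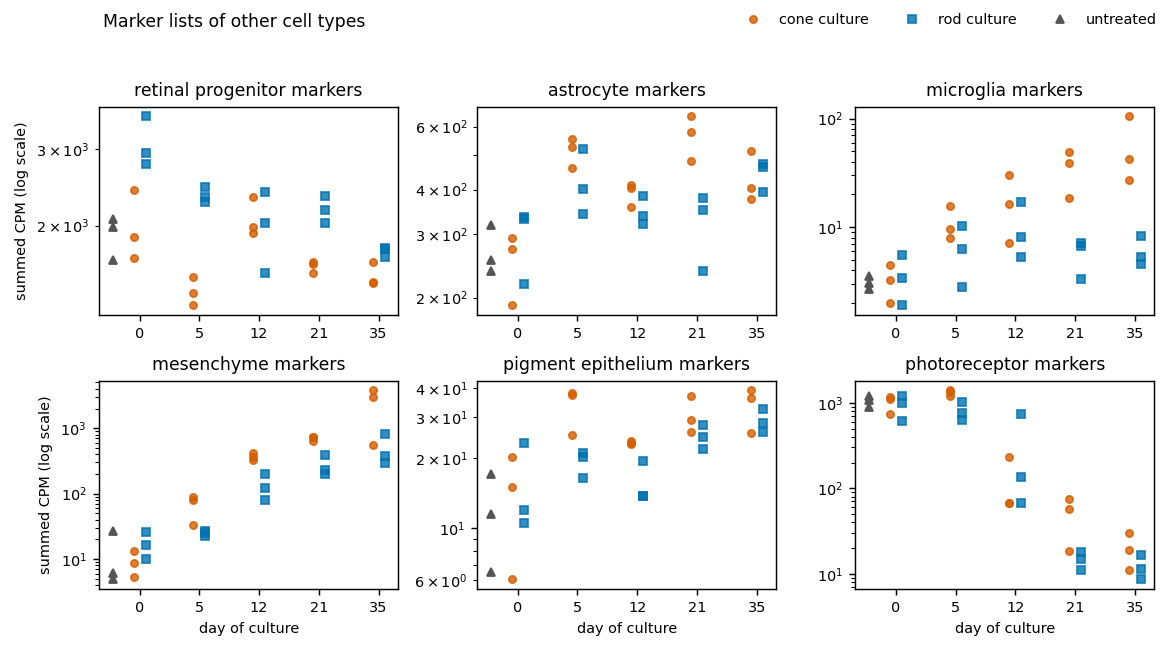
Summed CPM of marker lists for 6 other cell classes in every library on log axes, against day of culture drawn as evenly spaced categories. Microglia and mesenchyme sums are highest at cone day 35, up to 105 and 3782 CPM, and photoreceptor sums fall in both cultures.

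The courses of the members were compared over all 33 libraries on log2 CPM. The 45 pairs had a median Pearson correlation of 0.75, and 36 of them were above 0.5. These values describe a series whose libraries share day of culture, depth and composition, and no test was made on them. Slc1a3 and Kcnj10 were the most alike (0.955), then Dkk3 and Clu (0.910) and Rlbp1 and Kcnj10 (0.902). Glul stood apart, with correlations between -0.118 (with Clu) and 0.195 (with Rlbp1).

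Among 11917 genes ranked for likeness of course, the nearest to Dkk3 was Optc (0.991), which encodes the vitreous protein opticin, then Cd38 (0.987). Nearest to Kcnj10 were Dio2 (0.975), the type 2 deiodinase that activates thyroid hormone, and the transcription factor gene Nfix (0.972). Cbs (0.967) was nearest to Slc1a3, Ppa1 (0.977) to Clu, Arhgap18 (0.96) to Vim, Nipal3 (0.929) to Rlbp1, Efhd2 (0.927) to Apoe, Rftn1 (0.881) to Aqp4 and Ctbs (0.858) to Car14. No gene came above 0.697 with Glul, the value for Tspan15.

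A list of 18 other Muller glia genes, all tested, was set beside the 10. To day 35, 16 rose and 1 fell in cone culture, and 17 rose and 1 fell in rod culture (median log2 change 3.05 and 2.13). Of all genes 31.1% rose in cone and 29.4% in rod culture. Abca8a was at 0 in all cone primed libraries and could not fall there. The gene that fell in both was Crabp1, a retinoic acid binding protein also found in neurons (from 54.0 to 11.5 CPM in cone and from 32.0 to 8.00 CPM in rod culture). Mlc1, a membrane protein of glial end feet, went from 0.376 to 35.9 CPM in cone and from 0.531 to 53.2 CPM in rod culture. The transporter Abca8a went from 0 to 34.2 CPM in cone and from 0.442 to 88.4 CPM in rod culture. Over the mean of days, 2 of the 18 were higher in cone than in rod culture and 6 lower, where 15.6% of all genes were higher and 12.2% lower. Cav1, caveolin-1 (1.22 ± 0.15), and the metallothionein Mt1 (0.93 ± 0.18) were the higher ones. Abca8a (-1.48 ± 0.23) and the matricellular protein gene Sparcl1 (-1.02 ± 0.36) differed most on the lower side. With rod priming 9 of the 18 rose and none fell over untreated cells, where 6.71% of all genes rose.

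Transcription factors and Notch pathway genes tied to the glial fate moved less evenly. Of 15 tested, 10 rose and 3 fell to day 35 in cone culture, and 8 rose and 4 fell in rod culture (median log2 change 1.16 and 0.562). Over all genes 57.7% were called in cone and 55.6% in rod culture, 31.1% and 29.4% as higher. Nfix rose from 17.0 to 252 CPM in cone culture (3.90 ± 0.20) and from 49.3 to 286 CPM in rod culture (2.53 ± 0.18). Id1 rose by 2.69 ± 0.33 in cone and 1.83 ± 0.31 in rod culture, and Id3 by 2.52 ± 0.34 and 2.42 ± 0.34. Rax, an eye field gene of progenitors that Muller glia retain, fell (-2.38 ± 0.21 and -1.42 ± 0.20), and so did Notch1 (-0.45 ± 0.18 and -0.53 ± 0.18). Over the mean of days 8 of the 15 were lower and 1 higher in cone than in rod culture, where 12.2% of all genes were lower. The Notch effector Hes1 was among them (log2 -0.66 ± 0.10, adjusted p = 1.82e-05). The 1 higher gene was Hes5, another Notch effector, which lay below the level set for naming and was picked after its values were seen (2.07 ± 0.38, adjusted p = 0.00016). It had also fallen from 48.0 to 0.395 CPM in cone and from 15.9 to 0.149 CPM in rod culture by day 35.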

How the data were processed

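RNA was sequenced from 33 libraries, 3 in each of 11 groups. Whole-number read counts per gene were deposited by the authors for each library, together with TPM, FPKM and coverage (a signal that is never negative). HISAT2, StringTie and HTSeq on GRCm38 are named per the submitters' processing notes, without versions, and the strand setting and annotation release are not given in the sources used here. Library preparation used a low-input kit, per the labels' protocols. The deposited TPM values entered 1 alternative as log2(TPM + 1), and the deposited FPKM and coverage values were not used for results.

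Rows that name no gene were left out of library sizes. Genes were filtered with edgeR 4.0.16 (filterByExpr, minimum count 10, leaving 18150 genes) in R 4.3.3, scaled by TMM and fitted in 1 quasi-likelihood model of all 11 groups with 22 residual degrees of freedom. Calls are at a Benjamini-Hochberg adjusted p under 0.05 over all genes tested. Levels between genes were divided by GENCODE M21 union exon length. A floor of 3 counts was used, and intervals cover counting error only. The procedure was tested on simulated counts in which a small set of genes was changed, at cone day 35 alone. Far more genes were called in these data, so that test does not show how the scaling performs here. Alternatives were DESeq2 1.42.0, its size factors in edgeR, voom with quality weights and TPM in limma 3.58.1, no filter, a replicate block, the compared libraries alone, and leaving out each library. The test of cone change against rod change was chosen after seeing the data.

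The members and gene lists were chosen with earlier results of these data known. From each list, for primed to day 35 and for cone against rod over days 5 to 35, at most the 2 largest rises and the 2 largest falls among called genes with mean log2 CPM of at least 1 were named, and for likeness of course the 2 genes with the highest correlation per member. Some listed genes are not reported here by name.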

Additional observations from a re-analysis of the deposited data

Results flagged for a closer look

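For 7 of the 10 genes the difference between cone and rod culture was not the same on all 5 days, by the F test in edgeR with Benjamini-Hochberg adjustment. For Slc1a3 (adjusted p = 0.002881) the log2 difference of cone over rod culture went from -1.15 at day 0 to 0.57 at day 21 and -0.12 at day 35. For Vim (0.00373) it went from -1.02 at day 0 to 0.87 at day 12 and 0.84 at day 35, and for Apoe (0.004462) from -1.38 at day 0 to 1.68 at day 21 and 0.19 at day 35. For Dkk3 (0.006165) it was negative throughout, from -1.63 at day 0 to -0.51 at day 21 and -0.70 at day 35. For Rlbp1 (0.02101) it was -1.53 at day 0, -1.48 at day 12 and 0.42 at day 21, where the libraries overlapped. For Glul (0.02615) it was -0.50 at day 0 and 0.58 at day 21. For Aqp4 (0.02887) it was 2.26 at day 21, and no day 0 value is given because that rests on 3 cone primed counts.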

How the results depend on the processing

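Of 87 calls on single members, 52 were kept whichever library was left out and none turned. All 87 were kept with DESeq2, 86 with its size factors, 85 without the filter, 81 with voom and 69 with the compared libraries alone; on log2(TPM + 1) 24 were kept, 54 lost and 9 turned. The cause of these changes was not tested.

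On TPM the log2 changes that turned were, for cone over rod culture, Kcnj10 at day 5 (0.014), for rod priming Glul (-0.11), Kcnj10 (-0.14) and Clu (-0.27), for cone days 5 to 12 Kcnj10 (-0.63) and Apoe (-0.082), and for Aqp4 cone primed to day 5 (-0.19), to day 35 (-0.047) and cone minus rod change (-0.097). On TPM the members called were 1 at day 0, 1 at day 5, 0 at each of days 12, 21 and 35, 1 over the mean of days, 1 with rod priming, 2 for cone days 5 to 12, 0 for cone days 12 to 21, 1 for rod days 5 to 12, 0 for rod days 12 to 21 and 21 to 35, 2 for rod primed to day 35, 0 for cone minus rod change and 0 for change with day. With the compared libraries alone they were 6 at day 5, 0 at day 12, 1, 0 and 0 for the 3 rod intervals after day 5, and 2 for cone minus rod change. With voom they were 6 at day 21, 4 at day 35, and 5 for each of rod days 5 to 12 and 12 to 21.

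Leaving out 1 library, members called ranged from 3 to 8 at day 0, 2 to 3 at day 5, 2 to 4 at day 12, 1 to 2 at day 21, 1 to 2 at day 35 and 4 to 6 over the mean of days. They ranged from 5 to 7 with rod priming and stayed at 0 with cone priming. In cone culture they ranged from 6 to 8, 3 to 6 and 1 to 2 over the first 3 intervals, stayed at 0 in the last and at 9 to day 35. In rod culture they ranged from 3 to 4, 2 to 5, 0 to 2 and 0 to 1 over the 4 intervals and from 7 to 8 to day 35. For cone minus rod change they ranged from 1 to 5, and for change with day from 5 to 8.

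Replicate numbers were not taken to pair the libraries, since not every same-numbered pair correlated above 0.1, a bar that cannot tell partial pairing from none. Over 165 same-numbered pairs the median correlation of deviations from group means was 0.016, against -0.011 over 330 others. Above 0.1 were 48 of the same-numbered pairs and 71 of the others. Of 33 libraries 19 were closest to their own number, where 11 would be expected if numbers meant nothing. With the replicate number as a block, members called were 7 at day 0, 2 at day 21, 7 over the mean of days and 5 for cone minus rod change, and 85 of 87 calls were kept. Depth limits Aqp4 most, with 3 counts over the cone primed libraries.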

Other observations

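The deposited TPM and the counts disagreed for several of the 10 genes. Rlbp1 is listed at a TPM of 0 in 3 libraries that held 138 to 213 counts, Apoe in 2 libraries with 664 and 668 counts, and Aqp4 in 25 libraries with 1 to 169 counts. Across the 33 libraries the Spearman correlation of TPM with CPM, as a description, ran from 0.117 for Aqp4 and 0.308 for Car14 to 0.921 for Dkk3. The cause was not tested.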
